A study of Mus musculus with 76 samples.

Results

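Transcripts of 5 genes that mark red blood cells and their precursors were measured in whole tumors from mice: *Hba-a1* and *Hba-a2*, *Hbb-bs* and *Hbb-bt*, and *Alas2*. They were chosen by name as markers of blood content, and each symbol was matched to 1 of the 55536 gene identifiers in the count table. Mature red blood cells have no nucleus but keep globin transcripts for some time, and they reach a tumor through its vessels. *Hba-a1* and *Hba-a2* encode the alpha chain of adult hemoglobin, *Hbb-bs* and *Hbb-bt* encode its beta chain, and *Alas2* encodes the erythroid enzyme that starts heme synthesis. Red blood cells are also rich in catalase, the enzyme that the study delivered to tumors, and they carry the oxygen whose lack drives the hypoxia response.

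All tumors grew under the skin of the flank in BALB/c mice. The 38 tumors formed 7 groups: unmodified CT26, a colorectal carcinoma line, with alum (n = 5) or CAT-ABP + alum (n = 6); unmodified 4T1, a mammary carcinoma line, with alum (n = 5) or CAT-ABP + alum (n = 6); 4T1-CAT with alum (n = 5) or CAT-ABP + alum (n = 5); and 4T1-control, with alum only (n = 6). CAT-ABP is catalase joined to an alum-binding peptide, here called extracellular catalase (EC CAT), and every mouse received alum, so no group was free of injection. Per the labels, 100 µg alum with or without 20 µg CAT-ABP went into the tumor on day 6, and tumors were taken on day 8. The study's text gives later days. 4T1-CAT cells carried doxycycline-inducible catalase and GFP (intracellular catalase, IC CAT), and 4T1-control cells carried inducible GFP alone; both engineered lines came from lentiviral transduction, and their hosts ate a doxycycline diet from day 4. Unmodified CT26 and 4T1 tumors had no such diet.

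The adult globin genes lie in an alpha cluster and a beta cluster, and each cluster holds near-identical copies. On GRCm38 with the GENCODE M21 annotation, *Hba-a1* (ENSMUSG00000069919) spans chromosome 11, 32283511 to 32284465, and *Hba-a2* (ENSMUSG00000069917) spans chromosome 11, 32296489 to 32297298, both on the plus strand. *Hbb-bs* (ENSMUSG00000052305) spans chromosome 7, 103826534 to 103828096, and *Hbb-bt* (ENSMUSG00000073940) spans chromosome 7, 103812524 to 103813996, both on the minus strand. *Alas2* (ENSMUSG00000025270) spans chromosome X, 150547375 to 150570638, on the plus strand. In the first annotated transcript of each gene, *Hba-a1* and *Hba-a2* were identical at 537 of 538 aligned bases, and at all 77 aligned bases from the stop codon on. *Hbb-bs* and *Hbb-bt* were identical at 440 of 441 coding bases but at 95 of 132 aligned bases (72%) from the stop codon on. The libraries sampled 3′ ends, so this last stretch can separate the beta copies, whereas no aligned base of it separates the alpha copies, whose annotated stretches end after 77 and 93 bases. BALB/c mice carry another beta-globin haplotype than the C57BL/6 reference genome; how reads of that haplotype were divided between *Hbb-bs* and *Hbb-bt* was not tested.

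The sequences that lead into these genes are shown because *Hba-a2* and *Hbb-bs*, on different chromosomes, varied together across tumors. Over all 38 tumors *Hba-a1*, *Hbb-bt* and *Alas2* did not follow them. Pearson r of *Hba-a1* was -0.11 with *Hba-a2* and 0.09 with *Hbb-bs*, but 0.63 and 0.75 without the libraries with the fewest counts. *Hbb-bt* had at most 46 counts per tumor and *Alas2* at most 12. A link between these sequences and the levels was not tested. Each line gives the 250 bases before the RefSeq start of the gene on GRCm38.p6, 5′ to 3′ on the gene's strand. These starts lie inside the GENCODE spans given above, so each window overlaps its annotated gene. The letters are those of the C57BL/6 reference genome, whereas the mice were BALB/c. Capitals mark GATAA (the core that GATA factors bind), CACCC (the core bound by Klf1 and its relatives), CCAAT and TATAA, on either strand. Where matches touch or overlap, their capitals run together.

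Hba-a2, chr11:32296242-32296491, plus strand: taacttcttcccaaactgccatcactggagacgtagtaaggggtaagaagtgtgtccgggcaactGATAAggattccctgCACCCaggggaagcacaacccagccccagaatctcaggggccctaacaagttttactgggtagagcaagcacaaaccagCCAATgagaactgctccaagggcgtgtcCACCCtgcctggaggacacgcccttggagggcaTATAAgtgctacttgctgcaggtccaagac

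Hbb-bs, chr7:103827929-103828178, minus strand: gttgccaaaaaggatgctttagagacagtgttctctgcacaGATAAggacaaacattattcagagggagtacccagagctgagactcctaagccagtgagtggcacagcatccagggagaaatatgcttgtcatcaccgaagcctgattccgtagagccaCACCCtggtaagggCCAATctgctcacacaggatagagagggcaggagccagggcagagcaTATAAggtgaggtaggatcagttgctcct

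Hbb-bt, chr7:103813924-103814173, minus strand: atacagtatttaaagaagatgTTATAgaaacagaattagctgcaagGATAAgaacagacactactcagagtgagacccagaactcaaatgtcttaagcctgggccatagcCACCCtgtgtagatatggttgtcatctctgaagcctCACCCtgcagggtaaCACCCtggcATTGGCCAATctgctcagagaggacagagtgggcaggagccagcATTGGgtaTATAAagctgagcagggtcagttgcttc

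Alas2, chrX:150547167-150547416, plus strand: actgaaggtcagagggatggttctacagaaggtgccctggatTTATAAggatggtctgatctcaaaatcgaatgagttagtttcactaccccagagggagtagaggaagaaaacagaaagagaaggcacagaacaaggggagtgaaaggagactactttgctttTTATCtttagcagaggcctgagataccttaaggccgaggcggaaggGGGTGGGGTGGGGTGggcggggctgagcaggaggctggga

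The *Hba-a2* window held TATAA from base 30 to base 26 before the start, CCAAT from 91 to 87, CACCC from 63 to 59 and from 170 to 166, and GATAA from 185 to 181. The *Hba-a1* window (chr11:32283422-32283671) was identical to it at 247 of 247 aligned bases. The *Hbb-bs* window held the same 4 motifs, with TATAA from 29 to 25 and GATAA from 209 to 205, and it was identical to the *Hbb-bt* window at 178 of 243 aligned bases (73.3%). The *Alas2* window held 3 of the 4 motifs and no CCAAT. Among 27025 promoter windows of this length in RefSeq, 23% held GATAA, 51.3% CACCC, 34.5% CCAAT and 23.5% TATAA on either strand, and 1.01% held all 4. A match describes these letters and does not show that a factor is bound.

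Total counts per tumor lay between 493044 and 9077549, each tumor being the sum of 2 technical libraries, and 7 of the 76 libraries held under 0.25 of the median library total. Both libraries of 4T1-control replicate 2 were among these 7. By the first part of the index tags in the deposited sample table, the tumors fell into 2 sets, here called index sets A and B; no source used here says what the tags stand for. All CT26 tumors, all unmodified 4T1 tumors with CAT-ABP + alum and 4T1 alum replicates 1 and 2 were in set B, while 4T1 alum replicates 3, 4 and 5 and all 4T1-control and 4T1-CAT tumors were in set A. Levels are given as counts-per-million (CPM), the share of a tumor's counts that fell on a gene; in 3′ libraries this share does not grow with transcript length. In bulk tumor RNA, fewer red blood cells and less globin RNA per cell cannot be told apart.

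Hemoglobin transcripts were detected in every tumor at a modest level. The 4 hemoglobin genes together took between 49.8 and 236 CPM, and *Hbb-bs* was the most abundant, with a median of 67.3 CPM over the 38 tumors (range 21.6 to 122). *Hba-a2* ranged from 12.2 to 77.1 CPM and *Hba-a1* from 0 to 51.3 CPM. *Hbb-bt* was scarcer, at 0 to 7.35 CPM, and was at 0 in 2 tumors. *Alas2*, which marks erythroid precursors rather than mature cells, had 138 counts over all 76 libraries, between 0 and 12 counts per tumor, and was at 0 in 9 tumors. Many of the deposited estimated counts were fractions: of the libraries with any count, 1.41% had a whole number for *Hba-a1*, 7.89% for *Hba-a2*, 26.3% for *Hbb-bs* and 0% for *Hbb-bt*, against 50% for *Alas2* (whole to within 1e-09). The summed hemoglobin level of the 2 libraries of a tumor went together (r = 0.765 over 38 tumors after group means were subtracted, and 0.899 over the 32 tumors without a library of low depth).

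By the median summed hemoglobin level, the groups ran from 155 CPM in 4T1-CAT alum to 148 CPM in 4T1-CAT with CAT-ABP + alum, 136 CPM in 4T1 with CAT-ABP + alum, 132 CPM in CT26 with CAT-ABP + alum, 121 CPM in CT26 alum, 106 CPM in 4T1 alum and 74.5 CPM in 4T1-control alum. Every neighbor in this order overlapped the next. The 4T1-control group had the lowest median of all 5 members. In 3 of the 7 groups, the tumor with the most hemoglobin was also the one with the fewest counts: CT26 alum replicate 2 (209 CPM, 1972842 counts), 4T1 CAT-ABP + alum replicate 4 (236 CPM, 837403 counts) and 4T1-control replicate 2 (199 CPM, 493044 counts). Across tumors, r between log2 hemoglobin CPM and log2 total count was -0.409 after group means were subtracted (n = 38), and -0.215 without the last of these (n = 37); its part in the group levels was not tested.

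**Figure D1:**
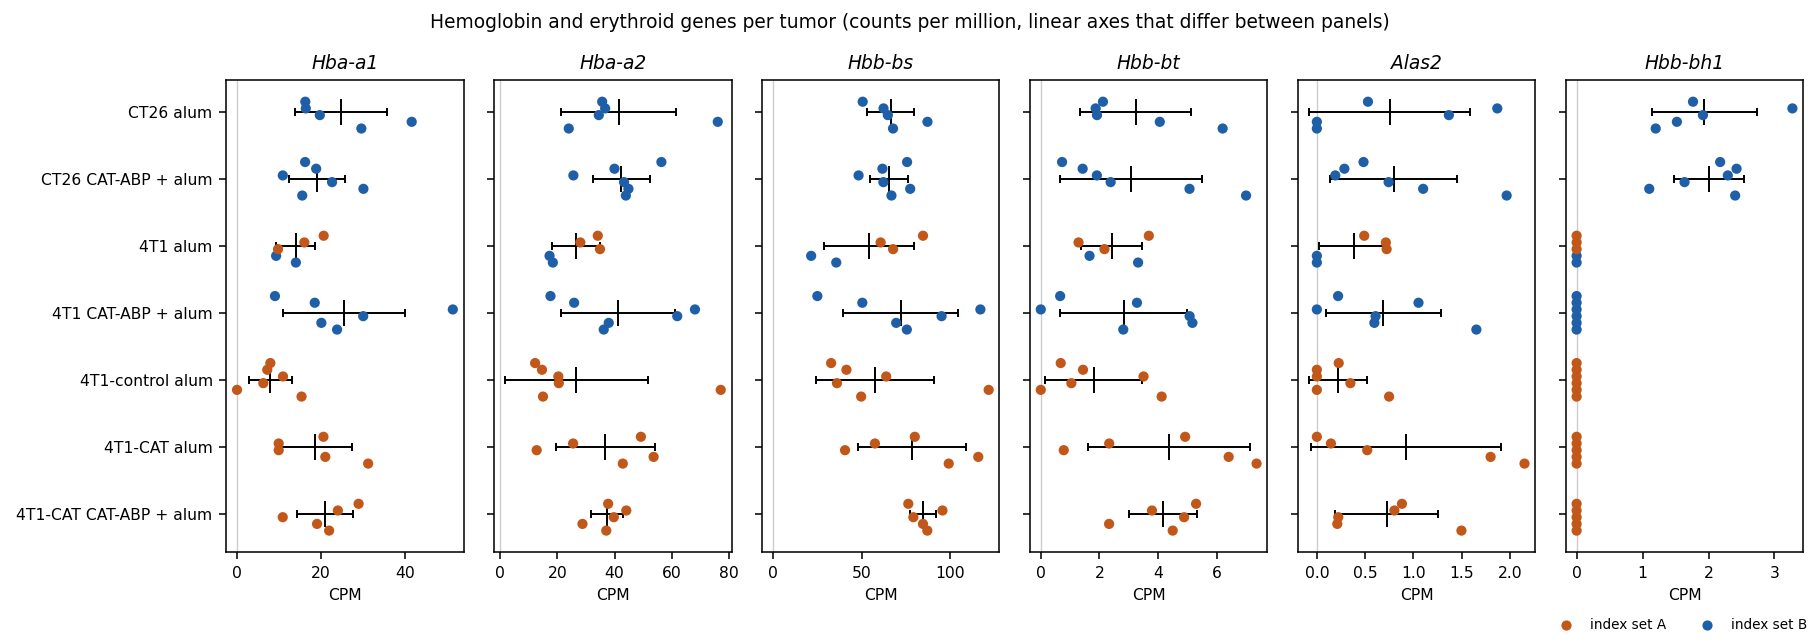
CPM of the 5 members and of the embryonic gene Hbb-bh1 in each of 38 tumors, 1 point per tumor, with the group mean (vertical tick) and SD (bar); point color gives the index set, and the linear horizontal axes differ between panels. The groups of each comparison overlap for each member, 4T1-control alum has the lowest median in each, and Hbb-bh1 is above 0 in the 11 CT26 tumors and at 0 in the other 27.

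In the edgeR quasi-likelihood F test over all 7 groups, which called 8018 of 14646 genes (54.7%), *Hba-a1* (adjusted p = 0.00821) and *Hba-a2* (adjusted p = 0.0464) passed, whereas *Hbb-bs* (adjusted p = 0.495) and *Hbb-bt* (adjusted p = 0.548) did not. A count of 2 of 4 tested members is near that background. Among the 5 groups of 4T1 lineage, where 0.382% of 13875 genes were called, no tested member was called; *Hba-a1* had an unadjusted p of 0.0168 and an adjusted p of 0.249. *Alas2* did not pass the filter on low counts in any fit.

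The alpha and beta genes were not in a fixed ratio, and the ratio went with the index sets. Alpha counts were between 31.7% and 56.3% of all hemoglobin counts in a tumor, with a median of 42.7%. In the 19 tumors of index set A the alpha share was between 31.7% and 45.1% (median 38.3%), and in the 19 tumors of set B between 42% and 56.3% (median 47.6%). Only 2 of the 19 set A tumors reached the lowest value of set B. The split held inside 1 group: among the 4T1 alum tumors, the 3 in set A had alpha shares of 38.3% to 41.5%, and the 2 in set B had 45.4% and 53.3%. Because CT26 tumors were all in set B and engineered tumors all in set A, line and index set cannot be told apart for this share outside the 4T1 tumors.

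**Figure D2:**
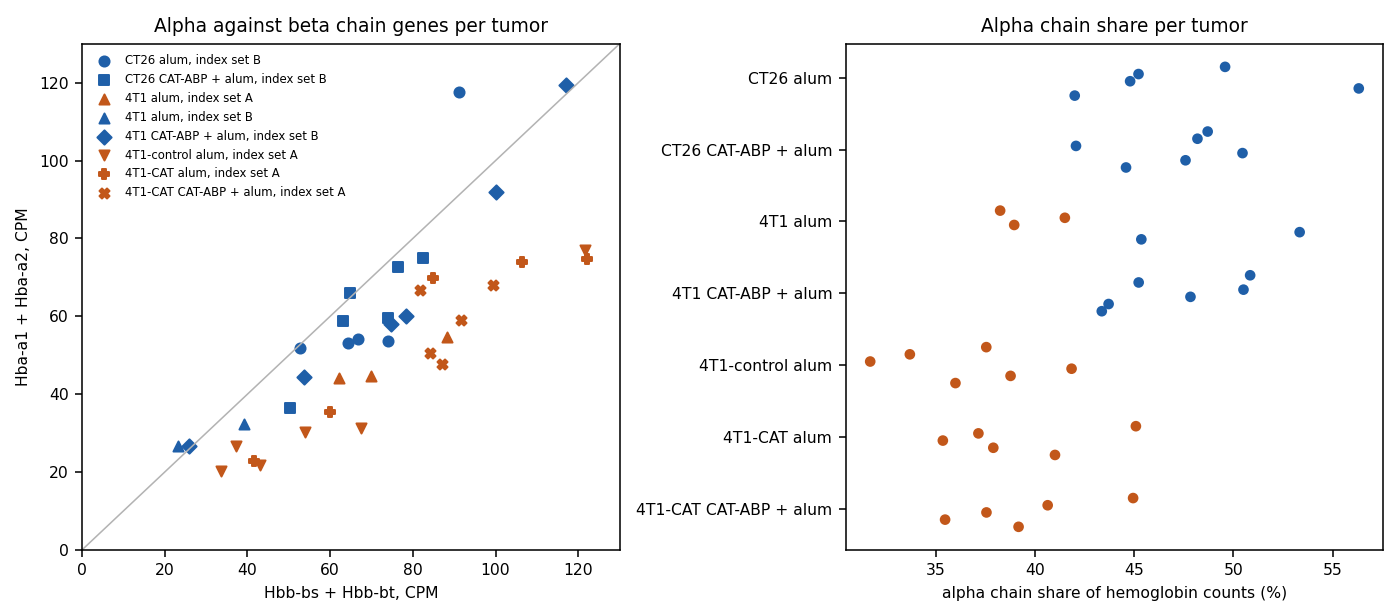
Left, summed alpha chain genes against summed beta chain genes in each tumor (both in CPM), with marker shape for the group, color for the index set and a line of equal levels; right, the alpha share of hemoglobin counts in percent, 1 point per tumor. Tumors of set B lie closer to the line (median alpha share 47.6%) than tumors of set A (38.3%), also within 4T1 alum.

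The division of alpha counts between copies was less stable than their sum. Over all tumors 35.1% of alpha counts were assigned to *Hba-a1* (exact binomial 95% confidence interval 34.1 to 36.0%, counting error only), but single libraries ran from 0 to 63.6%. The 2 libraries of a tumor differed by a median of 7.97 percentage points and by as much as 55.1, with r = 0.086 between them across 38 tumors. In 5 libraries *Hba-a1* was at 0 while *Hba-a2* had between 2 and 31 counts, and 3 of the 5 were of low depth. For *Hbb-bt* the share of beta counts was 4.61% in all and between 0 and 9.47% in single tumors. For each comparison, the fold changes of *Hba-a1* and *Hba-a2* are therefore given below beside that of the sum of both.

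**Figure D3:**
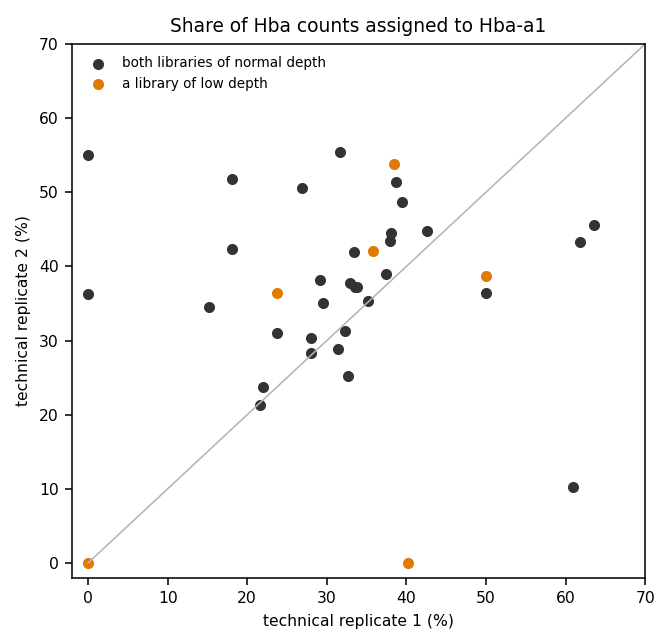
Percent of Hba counts assigned to Hba-a1 in technical replicate 1 (horizontal) and technical replicate 2 (vertical) of each tumor, with a line of equality and tumors that have a library of low depth in orange. Points scatter widely around the line, with a median difference of 7.97 percentage points between the libraries of a tumor.

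The first comparison asks whether extracellular catalase changed blood content in CT26 tumors. The log2 fold changes of the 4 tested members lay between -0.27 (*Hba-a1*, 95% confidence interval -0.77 to 0.23) and 0.11 (*Hba-a2*, -0.41 to 0.63). *Hbb-bs* was at 67.8, 87.2, 64.9, 62.4 and 50.7 CPM in the alum tumors and at 48.3 to 77.4 CPM (median 64.6) in the CAT-ABP + alum tumors. *Hba-a2* was at 24.0, 76.0, 34.5, 36.7 and 35.7 CPM with alum and at 25.6 to 56.3 CPM (median 43.6) with CAT-ABP + alum. *Hba-a1* was at 29.6, 41.6, 19.7, 16.4 and 16.2 CPM with alum and at 10.9 to 30.1 CPM (median 17.5) with CAT-ABP + alum. The groups overlapped for every member. None of the 4 tested members was called by edgeR's quasi-likelihood test (background 0% of 12830 genes called; 311 at an unadjusted p under 0.05, none of them a member, and 1 gene called by DESeq2). The log2 fold change was 0.03 for *Hbb-bs* (95% confidence interval -0.24 to 0.30) and -0.03 for the summed alpha copies (-0.47 to 0.41).

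In unmodified 4T1 tumors the members were higher on average with extracellular catalase, but by less than the spread between tumors allowed to call. *Hba-a1* was at 14.0, 9.30, 9.76, 16.0 and 20.6 CPM with alum and at 9.02 to 51.3 CPM (median 21.9) with CAT-ABP + alum. *Hba-a2* was at 18.4, 17.3, 34.9, 28.0 and 34.1 CPM with alum and at 17.6 to 68.1 CPM (median 37.1) with CAT-ABP + alum. *Hbb-bs* was at 35.7, 21.6, 67.8, 60.8 and 84.7 CPM with alum and at 25.1 to 117 CPM (median 72.5) with CAT-ABP + alum. Treated tumors included both the highest and, for *Hba-a1*, the lowest value, and 4 of 6 exceeded every alum tumor for *Hba-a2*. The summed alpha copies had a log2 fold change of 0.63 (95% confidence interval -0.06 to 1.32, adjusted p = 0.999 by edgeR). The log2 fold changes were 0.71 for *Hba-a1* (SE 0.35), 0.51 for *Hba-a2* (SE 0.33), 0.32 for *Hbb-bs* (SE 0.37) and 0.36 for *Hbb-bt* (SE 0.49), and none was called by edgeR (adjusted p = 0.999 for each; background 0% of 13092 genes called; 377 genes at an unadjusted p under 0.05, none of them a member, and 0 called by DESeq2). Beside them, 8 of 8 tested T cell genes (median 0.52) and 5 of 6 adipocyte genes (median 0.69) had higher values with extracellular catalase, against 12 of 21 endothelial genes (median 0.03), with none called; their part in the hemoglobin values was not tested.

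The index sets divided these alum tumors, and the hemoglobin level went with the division. The 2 alum tumors in set B, which held every treated tumor, had summed hemoglobin of 71.5 and 49.8 CPM, whereas the 3 in set A had 115, 106 and 143 CPM. The 2 in set B also had the fewest counts of their group (2713843 and 3009562). With tumors of the shared index set only, the log2 fold changes were 1.06 for *Hba-a1*, 1.2 for *Hba-a2* and 1.36 for *Hbb-bs*, with no member called (2 alum tumors). The part of the index sets in the level was not tested.

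In 4T1-CAT tumors, where the cells themselves made catalase, adding the extracellular form left the hemoglobin medians close. *Hbb-bs* was at 99.2, 116, 40.7, 57.6 and 80.0 CPM with alum and at 87.1, 84.6, 79.2, 95.6 and 76.4 CPM with CAT-ABP + alum. *Hba-a2* was at 42.9, 53.6, 12.8, 25.5 and 49.2 CPM with alum and at 37.1, 28.8, 39.7, 44.1 and 37.7 CPM with CAT-ABP + alum. *Hba-a1* was at 31.2, 21.0, 9.91, 9.91 and 20.6 CPM with alum and at 21.9, 19.0, 10.9, 24.0 and 28.9 CPM with CAT-ABP + alum. For each of these 3 genes the alum tumors reached both lower and higher than all treated tumors. None of the 4 tested members was called by edgeR (background 0% of 13093 genes called; 2000 genes at an unadjusted p under 0.05, none of them a member, and 218 called by DESeq2, none of them a member). The log2 fold change was -0.02 for *Hbb-bs* (95% confidence interval -0.44 to 0.39) and -0.04 for the summed alpha copies (-0.52 to 0.44).

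Tests of the difference between these effects gave no call. Between CT26 and 4T1 the extracellular effect on *Hba-a1* differed by -1.01 on the log2 scale (unadjusted p = 0.0411, adjusted p = 1.00, edgeR interaction term), and between 4T1-CAT and 4T1 by -0.67 (adjusted p = 0.727). Both had a background of 0% called, of 14160 and 13851 genes, with p under 0.05 before adjustment in 509 and 1218 genes, and DESeq2 called no member in either. The summed alpha copies gave -0.69 and -0.67, and both comparisons share the 4T1 tumors.

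The comparison of 4T1-CAT with 4T1-control tumors, both given alum and both in index set A, asks about catalase made inside the tumor cells. All 4 tested hemoglobin genes were higher on average in 4T1-CAT, and none was called after adjustment. Depth differed between the groups: 4 libraries of 4T1-control were of low depth, against 0 of 4T1-CAT with alum. The median total per tumor was 3523250 in 4T1-control and 4998360 in 4T1-CAT. The 4T1-control tumors held *Hba-a1* at 0 to 15.4 CPM (median 7.56), and 3 of the 5 4T1-CAT tumors lay above all of them. *Hba-a2* was at 12.2 to 77.1 CPM (median 17.7) and *Hbb-bs* at 32.9 to 122 CPM (median 45.6) in 4T1-control, where the highest value of both was replicate 2, the tumor with the fewest counts. The log2 fold changes were 1.00 for *Hba-a1* (SE 0.35), 0.75 for *Hba-a2* (SE 0.40), 0.51 for *Hbb-bs* (SE 0.31) and 1.04 for *Hbb-bt* (SE 0.54), and the sum of both alpha copies gave 0.81 (95% confidence interval 0.14 to 1.47, adjusted p = 0.838).

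Only *Hba-a1* had an unadjusted p under 0.05 there (p = 0.0101 by edgeR, adjusted p = 0.73; two-sided exact permutation test of log2 CPM p = 0.0346). The permutation test rests on a difference in mean log2 CPM of 1.62. It includes 4T1-control replicate 2, which had 0 counts on *Hba-a1*, so its log2 value came from the added prior count. The background was 0% of 12534 genes called, with 637 genes at an unadjusted p under 0.05 and 6 called by DESeq2, none of them a member. Without a filter on low counts *Hba-a1* was called (adjusted p = 0.0349), as were 131 genes in all. Without the libraries of low depth the log2 fold changes were 0.92 for *Hba-a1*, 1.13 for *Hba-a2*, 0.77 for *Hbb-bs* and 0.94 for *Hbb-bt*, with no call. Several other lists of tissue markers went the same way. In 4T1-CAT, 20 of 21 tested endothelial genes had higher values (median log2 fold change 0.37). So did 10 of 10 skeletal muscle (1.25), 7 of 7 T cell (0.96) and 6 of 6 adipocyte genes (0.93). The same held for 5 of 5 neutrophil (0.73), 10 of 10 fibroblast (0.44) and 9 of 9 macrophage genes (0.22). The erythroid list did not go with them: 5 of 11 tested genes had higher values and 6 lower (median -0.01). Of 4 tested platelet genes 2 had higher values (median 0.21), and of 37 hypoxia genes 21 did (median 0.03). The 8 tested epithelial genes had a median of -0.04 and all genes a median of -0.01, and no gene of these lists was called. Their part in the hemoglobin values was not tested.

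**Figure D4:**
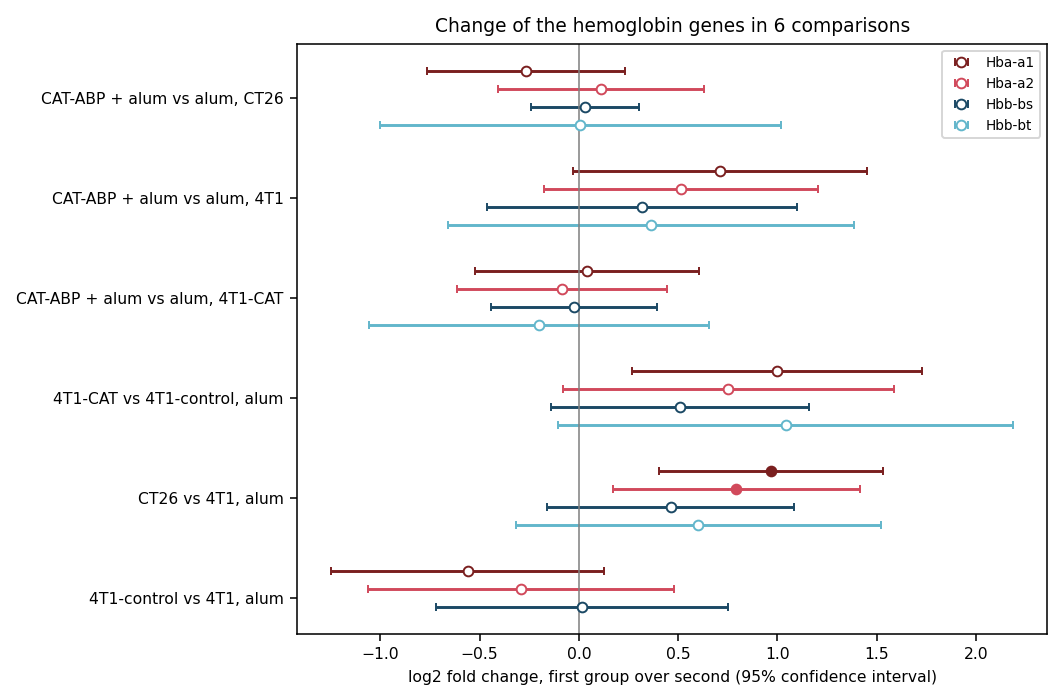
Log2 fold change of each hemoglobin gene in 6 comparisons of 2 groups, from edgeR, with 95% confidence intervals; filled points passed an adjusted p of 0.05, and Hbb-bt was not tested in the last comparison. Only Hba-a1 (0.97) and Hba-a2 (0.79) between CT26 and 4T1 tumors with alum are filled.

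By edgeR, the alpha globin genes were called higher in unmodified CT26 tumors than in unmodified 4T1 tumors, both with alum. All CT26 tumors were in index set B, whereas 3 of the 4T1 alum tumors were in set A. The alpha share of hemoglobin counts was lower in set A (median 38.3%) than in set B (47.6%). Fold changes within set B alone are given below. *Hba-a1* was higher in CT26 by 0.97 on the log2 scale (SE 0.27, adjusted p = 0.00822) and *Hba-a2* by 0.79 (SE 0.29, adjusted p = 0.0399), as was their sum by 0.87 (adjusted p = 0.0105). *Hbb-bs* gave 0.46 (adjusted p = 0.219) and *Hbb-bt* 0.60 (adjusted p = 0.278), so the beta genes did not pass. In this comparison edgeR called 42.4% of 12817 genes, and 21.3% of all tested genes were called higher in CT26, so 2 of 4 tested members called is read against a large background. DESeq2 also called 2 members.

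The values themselves overlapped, and the call on *Hba-a2* was fragile. All 5 CT26 alum tumors exceeded the median 4T1 alum tumor for *Hba-a1*, but only 2 exceeded every 4T1 tumor, and for *Hba-a2* it was 3. On log2 CPM, exact permutation tests (two-sided) gave p = 0.0635 for *Hba-a1* and p = 0.135 for *Hba-a2*. Scaling by totals in place of TMM shifted the median of all genes by -0.23, gave 0.79 for *Hba-a1* (adjusted p = 0.0432) and 0.60 for *Hba-a2* (adjusted p = 0.106), and moved the share of calls that were higher in CT26 from 50.2% to 32.7%. The call on *Hba-a2* was lost without any 1 of CT26 alum replicates 2, 4 or 5 (adjusted p = 0.101, 0.0693 and 0.0664) or 4T1 alum replicates 1, 2 or 4 (adjusted p = 0.0983, 0.0989 and 0.0855). *Hba-a1* was called without each of the 10 tumors in turn, with an adjusted p of at most 0.0253.

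Within the shared index set the beta gene passed as well. When the CT26 alum tumors were compared with the 2 4T1 alum tumors of index set B alone, *Hba-a1* (1.30, adjusted p = 0.0174), *Hba-a2* (1.46, adjusted p = 0.0163) and *Hbb-bs* (1.48, adjusted p = 0.00123) were higher in CT26, and *Hbb-bt* was not called (0.60, adjusted p = 0.511). There edgeR called 27.4% of 13600 genes, 13.5% higher in CT26. With the index set as a covariate *Hbb-bs* gave 1.49 (adjusted p = 0.000878). *Hbb-bs* was also called without 4T1 alum replicate 5, the set A tumor with the most hemoglobin (0.73, adjusted p = 0.0436). The larger fold changes rest on 2 tumors, at 71.5 and 49.8 CPM of summed hemoglobin against 105 to 209 CPM in CT26.

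Engineering the 4T1 line was compared in 4T1-control and unmodified 4T1 tumors, both with alum, which also differ by the doxycycline diet. The log2 fold changes were -0.56 for *Hba-a1* (95% confidence interval -1.25 to 0.13), -0.29 for *Hba-a2* (-1.06 to 0.48) and 0.02 for *Hbb-bs* (-0.72 to 0.75), while *Hbb-bt* did not pass the filter. No member was called by edgeR (background 0% of 12431 genes called; 1307 genes at an unadjusted p under 0.05, none of them a member, and 15 called by DESeq2, none of them a member). In the shared index set, with 3 4T1 alum tumors, the 3 values were -0.69, -0.56 and -0.34. The summed alpha copies gave -0.36 over all tumors of both groups (95% confidence interval -0.96 to 0.25).

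*Alas2* was at 0 to 2.15 CPM over all tumors, and the group medians ran from 0.113 CPM in 4T1-control alum to 0.804 CPM in 4T1-CAT with CAT-ABP + alum. With the filter on low counts left out, its log2 fold change was 1.98 between 4T1-CAT and 4T1-control (SE 0.92, unadjusted p = 0.0323, adjusted p = 0.691 by edgeR), 1.05 between CT26 and 4T1 and between -0.81 and 0.77 in the other comparisons, with no call. Its counts per tumor had group medians of 0.5 to 5, so these fold changes rest on few reads.

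Within groups, the major alpha and beta genes rose and fell together from tumor to tumor. After group means were subtracted, log2 CPM of *Hba-a2* and *Hbb-bs* had r = 0.86 and Spearman's rho = 0.85 over 38 tumors (permutation p = 1e-05, the smallest that 100000 permutations can give; adjusted over 10 pairs p = 0.0001). The relation was 0.82 without the 2 tumors farthest from the median, 0.84 without the libraries of low depth, and 0.89 and 0.84 within index sets A and B. Alpha and beta chains are made in the same cells, and both genes were read from the same libraries.

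The other 9 pairs did not pass by Pearson's r, and those with *Hba-a1* moved when the libraries of low depth were left out. *Hba-a1* had r = -0.11 with its near-identical copy *Hba-a2* over all tumors (permutation p = 0.598), -0.48 in index set A and 0.75 in set B, and 0.63 without the libraries of low depth (adjusted permutation p = 0.00167). With *Hbb-bs* it had r = 0.09 (permutation p = 0.674; rho = 0.44, adjusted permutation p = 0.0436) over all tumors and 0.75 without those libraries (adjusted permutation p = 5e-05). Both libraries of 4T1-control replicate 2, which had 0 counts on *Hba-a1* and 38 on *Hba-a2*, are among those left out. *Hba-a1* with *Hbb-bt* gave r = 0.48 (permutation p = 0.0131, adjusted 0.0653) and passed by rank (rho = 0.47, adjusted permutation p = 0.0308), with r = 0.36 without the libraries of low depth (adjusted permutation p = 0.178). *Alas2* had r of 0.04 to 0.33 with the 4 hemoglobin genes, none called.

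Blood enters tumors through vessels, so the members were set against 26 endothelial genes, of which 23 passed the filter on low counts, and against 41 hypoxia genes, of which 38 did. The list levels were means of log2 CPM. Over all 38 tumors, the 2 abundant hemoglobin genes did not go with either list. *Hba-a2* had r = 0.01 with endothelial genes and -0.14 with hypoxia genes, and *Hbb-bs* had -0.12 and -0.19 (permutation p between 0.262 and 0.973). *Hba-a1* had 0.39 and 0.43 (adjusted permutation p = 0.131 and 0.130), which fell to 0.13 and 0.14 without the libraries of low depth. *Hbb-bt*, with at most 46 counts per tumor, passed with both lists, at r = 0.56 with endothelial (adjusted permutation p = 0.0170) and 0.47 with hypoxia genes (adjusted permutation p = 0.0471). Neither held by rank (adjusted permutation p = 0.106 and 0.137), without the 2 tumors farthest from the median (r = 0.39 and 0.36, adjusted permutation p = 0.251 for each) or without the libraries of low depth (r = 0.50 and 0.37, adjusted permutation p = 0.0885 and 0.235). *Alas2* gave -0.07 and 0.08. These are 10 relations, and low counts and depth enter both sides of each. Within single groups of 6 tumors, r of the abundant genes with endothelial genes went both ways. For *Hba-a2* it was 0.75 in CT26 CAT-ABP + alum, -0.47 in 4T1 CAT-ABP + alum and -0.72 in 4T1-control alum. For *Hbb-bs* it was 0.93, -0.43 and -0.84 in the same groups. The values within single groups were not tested.

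**Figure D5:**
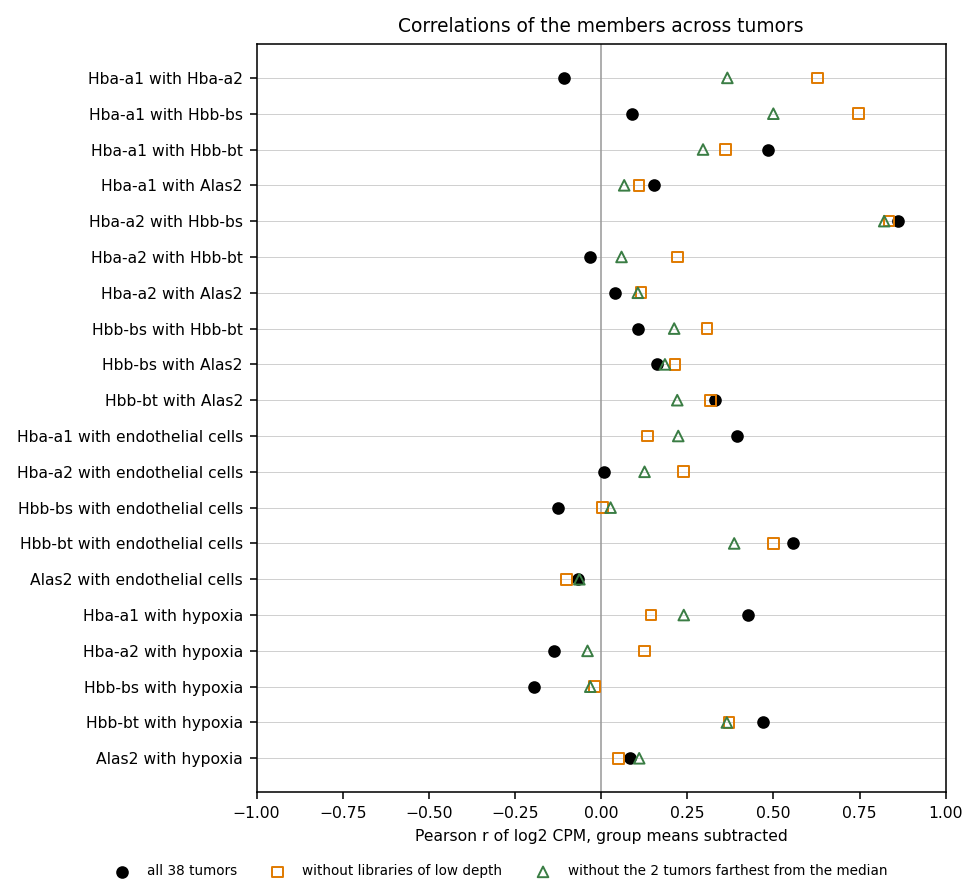
Pearson r between log2 CPM of the members, and between each member and the mean of the endothelial and hypoxia lists, after group means were subtracted, over all 38 tumors (filled circles), without libraries of low depth (squares) and without the 2 tumors farthest from the median (triangles). Hba-a2 with Hbb-bs lies at 0.86, 0.84 and 0.82, whereas Hba-a1 with Hba-a2 moves from -0.11 to 0.63 and 0.37.

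The genes whose group-centered level was most like summed hemoglobin were none of the blood, vessel or hypoxia genes. Of 14642 genes, the 10 with the highest r were *Septin10* (0.78), *Upf1* (0.72), *Ogfod2* (0.67), *Secisbp2l* (0.67), *Ttc4* (0.66), *Obi1* (0.65), *Rbm8a2* (0.65), *Cdk11b* (0.64), *Gm4366* (0.64) and *Kin* (0.64). The median r of all genes was -0.10, against -0.12 for the 13 tested erythroid genes, -0.01 for endothelial, -0.10 for hypoxia and 0.13 for platelet genes. Single genes of these lists spread widely, from -0.44 to 0.47 for endothelial genes, where *Emcn* was highest at rank 226. They spread from -0.46 to 0.41 for hypoxia, -0.53 to 0.33 for erythroid and -0.07 to 0.44 for platelet genes. Among the 10 genes, *Upf1* (mean 1.67 CPM) and *Rbm8a2* (2.86 CPM) were scarce. The highest of 14642 values is chosen, so the r values of the 10 genes are a description.

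Several genes known mainly from red cells and their precursors were near the limit of detection, whereas other genes of the erythroid list, which many cells express, were not. Of 32 erythroid genes, 31 were found in the table (*Ahsp* was not matched), and 13 passed the filter over the 7 groups, led by *Bnip3l*, a mitophagy receptor (mean 236 CPM), and *Isg20* (58.0 CPM). The summed level of the list had group medians of 346 to 515 CPM. *Slc4a1*, the band 3 anion exchanger of the red cell membrane, had 23 counts in 12 tumors. *Klf1*, an erythroid transcription factor, had 32 counts, *Hemgn* 21, *Rhag* 27 and *Epb42* 50, and *Kel*, *Car1* and *Trim58* had none. A count of 0 over all tumors leaves up to 3 counts possible. *Pf4*, a chemokine of platelets and some macrophages, stood at 124 to 571 CPM, while *Ppbp*, another platelet chemokine, stood at 0 to 9.84 CPM.

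The other globin genes were absent or rare with 1 exception. *Hbb-bh2*, *Hbb-bh3* and *Hba-x* had no counts, and *Hbb-y*, *Hbq1a* and *Hbq1b* had at most 8 in all. *Hbb-bh1*, a beta-like globin of the embryo, was present in 11 of 11 CT26 tumors (3 to 17 counts, 1.1 to 3.27 CPM) and in 0 of 27 tumors of the 4T1 lineage. In replicates 1 to 5 of CT26 alum it was at 1.2, 1.52, 1.92, 3.27 and 1.77 CPM, and with CAT-ABP + alum at 1.1 to 2.43 CPM (median 2.23). With 117 counts against a floor of 3 counts over all 4T1-lineage tumors, its pooled CPM was at least 79.2-fold higher in CT26. Extracellular catalase did not move it detectably in CT26 (log2 fold change 0.04, SE 0.38, adjusted p = 1.00). *Hbb-bh1* is no member and was singled out after its values were seen, so the difference between lines is a description, with no test.

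Between CT26 and 4T1 tumors with alum, related genes moved in both directions, against a background of 42.4% of all tested genes called. Of 12 tested erythroid genes 5 were called: *Rhd*, the Rh blood group protein (3.01, adjusted p = 0.000103), *Car2*, a carbonic anhydrase (2.11), *Gypc*, a glycophorin (0.99), and *Mkrn1* (0.47) were higher in CT26, and *Bpgm*, which makes 2,3-bisphosphoglycerate (-1.08), was lower. Of 10 tested heme synthesis genes *Tmem14c* was called (0.55). Of 9 tested genes for hemoglobin and heme clearance, *Blvrb*, which reduces biliverdin (2.52), *Slc48a1*, a heme transporter (1.03), and *Lrp1*, the hemopexin receptor (0.92), were higher in CT26, and *Slc40a1*, the iron exporter ferroportin (-2.27), was lower. Among 22 tested endothelial genes *Eng* (-1.58), *Flt1* (-0.97), *Emcn* (-0.82) and *Esam* (-0.58) were called lower and *Cd34* (4.01) higher. In all, 16 of the 22 had lower values in CT26 and 6 higher (median log2 fold change -0.30). The median summed level of the list was nonetheless 489 CPM in CT26 and 326 CPM in 4T1. *Cd34* was the most abundant gene of the list (mean 84.1 CPM over all tumors). *Pecam1* (0.10), *Cdh5* (-0.62) and *Kdr* (-0.01), markers of most vessels, were not called. Of 38 tested hypoxia genes 18 were higher and 8 lower, and the 5 with the smallest p were *Egln3* (-4.24), *Ak4* (-3.22), *Angptl4* (1.43), *Loxl2* (-1.20) and *Pgk1* (1.08). *Itgb3*, an integrin of platelets and other cells, was the only gene called among 4 tested platelet genes (-1.26). Of other cell types, 9 of 9 tested T cell, 4 of 4 B and plasma cell and 4 of 10 macrophage genes were higher in CT26, and 6 of 10 fibroblast genes were lower and 1 higher; their part in the hemoglobin values was not tested. Epithelial markers were lower in CT26 in 8 of 8 tested genes (median -5.91), and many of the named genes are also expressed by tumor, stromal or immune cells.

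In the other 5 comparisons of 2 groups, no gene of these lists was called. In CT26 with extracellular catalase, 32 of 35 tested hypoxia genes had lower values (median log2 fold change -0.25, median of all genes -0.0038). Before adjustment, 9 of the 35 had an edgeR p under 0.05, against 311 of 12830 genes (2.42%). The other lines did not share this direction. In 4T1, 20 of 38 tested hypoxia genes had higher values with extracellular catalase (median 0.0010). In 4T1-CAT, 26 of 38 did (median 0.13), and 5 of the 38 had an unadjusted p under 0.05, against 15.3% of all genes. Among clearance genes, *Hp*, which encodes the plasma protein that binds free hemoglobin, gave 0.96 for extracellular catalase in 4T1 (unadjusted p = 0.0112, adjusted p = 0.999 by edgeR) and 1.07 between 4T1-CAT and 4T1-control (unadjusted p = 0.00859, adjusted p = 0.707). *Cd163*, the macrophage receptor for the haptoglobin and hemoglobin complex, gave 1.94 in the latter comparison (unadjusted p = 0.00108, adjusted p = 0.518), and *Car2* gave 1.45 (adjusted p = 0.56). *Hmox1*, which breaks down heme, lay between 0.07 and 0.41 in the 3 extracellular comparisons and the intracellular one, with no call. The median *Hp* level was lower with extracellular catalase in CT26 (39.2 against 56.8 CPM) and in 4T1-CAT (82.7 against 103 CPM). Of the clearance list, 7 of 10 tested genes had higher values with extracellular catalase in 4T1 (median 0.23). So did 7 of 9 in 4T1-CAT against 4T1-control (median 0.08). With extracellular catalase, 4 of 8 did in CT26 (median 0.01) and 4 of 9 in 4T1-CAT (median -0.07).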

How the data were processed

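Total tumor RNA was sequenced by the authors on a NextSeq system as 3′ digital gene expression (a modified SCRB-seq protocol), and reads per gene came from a Smart-seq2 pipeline on Terra. The deposited values are estimated counts per gene and library, without normalization; genome build, annotation and the handling of molecular identifiers are not given in the sources used here. The authors left out some technical replicates of low depth without naming them; all 76 libraries were kept here, 2 per tumor, summed and rounded.

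The members, gene lists and rule for named genes were chosen with earlier results of these data known. The text names the 5 members, up to 5 genes past the threshold per comparison for the lists of blood, heme, platelet, vessel and hypoxia genes (other cell types are given as counts), a few fixed red cell, platelet, vessel, hypoxia and clearance genes, and the 10 genes most like summed hemoglobin; other erythroid, globin and marker genes were named after their values were seen. Genes were filtered with filterByExpr, scaled by TMM and tested with edgeR 4.0.16 (quasi-likelihood, Benjamini-Hochberg over all tested genes, threshold 0.05) in R 4.3.3 with limma 3.58.1. Intervals are at 95%. CPM is per library total; before taking log2, a prior count of 2 was added. Exact permutation tests (two-sided) compared single members, and correlations were tested by 100000 permutations within groups (SciPy 1.17.1, NumPy 2.4.6, pandas 2.3.3). The fits were tested on simulated counts with known changes in genes above a low count and the same dispersion for every gene. This checks the fits and does not measure the power to call the members. Alternatives were DESeq2 1.42.0, RLE factors, library totals (added after seeing the data), no filter, 1 model over all groups, a replicate block, index sets (as a covariate, and tumors of shared sets only), libraries of low depth left out, copies summed, a prior count of 0.5 and each tumor left out. Same-numbered tumors did not deviate together in 3 or more of 5 pairs in any comparison, so numbers were not taken as pairs. Positions are from GENCODE M21 and sequences from RefSeq on GRCm38. No source states separate cages or dates, so p-values measure the spread between these tumors.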

Additional observations from a re-analysis of the deposited data

Results flagged for a closer look

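Both values that stood apart from their group belong to 4T1-control alum replicate 2, the tumor with the fewest counts (493044). Its *Hba-a1* level of 0 CPM lay below the other 5 tumors of the group (6.26 to 15.4 CPM), and its *Hba-a2* level of 77.1 CPM (38 counts) lay above them (12.2 to 20.5 CPM). In each case the gap to the nearest tumor, divided by the range of the group, passed Dixon's limit for 6 values. In all 35 groups of values were examined in this way, and chance gives about 1 in 20. The alpha copies have no differing base among the 77 aligned from the stop codon on, and the part of their division and of depth in these values was not tested.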

How the results depend on the processing

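Hemoglobin levels rest on 60 to 866 beta counts per tumor, *Hbb-bt* on at most 46 and *Alas2* on at most 12, so modest changes of the last pair were not detectable at this depth. No member passed in the extracellular, intracellular or engineered-line comparisons under any alternative, except *Hba-a1* between 4T1-CAT and 4T1-control without a filter on low counts (1 member, 131 genes in all). Between CT26 and 4T1 1 member was called with library totals or with 1 model over all groups (*Hba-a2* 0.79, adjusted p = 0.0715 by edgeR), and 1 to 3 when a tumor was left out. Over the 7 groups 1 member was called by DESeq2, with RLE factors, with library totals or with the replicate block, and 1 to 2 without single tumors; over the 5 groups of 4T1 lineage 1 was called without a filter. Where no cause is named it was not tested.

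Genes called moved from 0 to 1 (CT26, extracellular) by DESeq2 and without a filter; to 16 (4T1, extracellular) without a filter; to 218 by DESeq2, 47 without a filter and 3 with the replicate block (4T1-CAT, extracellular); to 6 by DESeq2 and 131 without a filter (intracellular); and to 15 by DESeq2, 130 without a filter, 10 with 1 model, 14 without libraries of low depth, 1 in the shared index set and 1 with library totals (engineered line). Leaving out single tumors gave 0 to 1 in 4T1-CAT and in the intracellular comparison, and 0 to 6 for the engineered line (6 without 4T1-control replicate 2).

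Uncalled fold changes near 0 changed sign. For extracellular catalase in CT26, *Hba-a2* gave -0.028 with copies summed, *Hbb-bt* -0.011 by DESeq2, -0.0013 with RLE factors and -0.025 with library totals, and *Hbb-bs* -0.019 with library totals and -0.019 with the replicate block; without single tumors they ranged from -0.054 to 0.34 (*Hba-a2*), -0.37 to 0.38 (*Hbb-bt*) and -0.010 to 0.091 (*Hbb-bs*). In 4T1-CAT, *Hba-a1* gave -0.041 with copies summed, *Hba-a2* 0.039 and *Hbb-bs* 0.10 with library totals, and *Hbb-bs* 0.034 with the replicate block; without single tumors *Hba-a1* ranged from -0.12 to 0.30, *Hba-a2* from -0.27 to 0.11, *Hbb-bs* from -0.15 to 0.16 and *Hbb-bt* from -0.43 to 0.060. The difference between CT26 and 4T1 for *Hbb-bt* ranged from -0.73 to 0.017. For the engineered line, *Hba-a2* gave 0.10 by DESeq2, and *Hbb-bs* -0.042 with library totals, -0.010 without a filter, -0.22 without libraries of low depth, -0.39 with the index set as covariate, -0.34 in the shared index set and -0.23 to 0.29 without single tumors. The replicate block changed no other call. Library totals moved the median of all genes by 0.16 in 4T1-CAT with extracellular catalase and by -0.10 for the engineered line.

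Of 10 pairs of members 1 was called, 3 without libraries of low depth and 2 without the 2 tumors farthest from the median; of 10 relations with lists 2 were called, and 0 and 0 in those settings. Reversed correlations without libraries of low depth were *Hba-a1* with *Hba-a2* (0.63), *Hba-a2* with *Hbb-bt* (0.22), *Hbb-bs* with endothelial (0.0040) and *Hba-a2* with hypoxia genes (0.13). Without the 2 farthest tumors they were *Hba-a1* with *Hba-a2* (0.37), *Hba-a2* with *Hbb-bt* (0.059) and *Hbb-bs* with endothelial genes (0.027). With a prior count of 0.5 they were *Hba-a1* with *Hbb-bs* (-0.035), *Hba-a2* with *Alas2* (-0.016), *Hbb-bs* with *Hbb-bt* (-0.025), and *Hba-a2* (-0.093) and *Alas2* (0.0012) with endothelial genes.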
